A study of Bos taurus with 15 samples.

Results

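In the bovine thymus 10 genes were measured at a high level in some cows and a low level in others, with a wide empty interval in between: PRSS2, KLK12, IGFLR1, RET, NTRK3, AZI2, ZNF696, POLR1H, TATDN2 and TPRG1L. They were chosen by that spread of the array signal between animals, among 11718 genes that passed the filter on low signal, so the levels themselves are given as a description and carry no test. Their 13 probes were found by symbol, gene number, accession or description, and 11 of the 13 passed the filter, which asks for a signal well above background in no fewer than 7 of the 15 arrays. The study measured the thymus of 15 Holstein cows sampled at the slaughterhouse: prednisolone, a synthetic glucocorticoid, was given to 8 of them by the oral route (daily, 30 mg per head, over 35 days), and 7 controls received none. Each animal's RNA went to 1 single-colour oligonucleotide array, so a replicate is an animal. Ages, sexes and pedigree of the cows were not given in the sources used here.

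T cells develop in the thymus, whose immature thymocytes die when exposed to glucocorticoids. Its medullary epithelium also transcribes, at low levels, many genes of other organs, which are shown to developing T cells. The 10 genes have no common pathway: PRSS2 and KLK12 encode secreted serine proteases, IGFLR1, RET and NTRK3 cell surface receptors, AZI2 an adaptor of innate immune signalling, ZNF696 and POLR1H nuclear proteins, TATDN2 a protein of the TatD nuclease family and TPRG1L a protein of presynaptic terminals. In the reference gene table they lie on 8 chromosomes, IGFLR1 sharing one with KLK12 and AZI2 sharing another with TATDN2.

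The share of bovine spots well above background was 67.1% to 77.7% per array, and precision is limited by how many arrays there are. Markers of immature thymocytes (11 of 11 on the array) and of thymic epithelium (11 of 11) passed the filter, as the label thymus implies. The arrays lay on 4 slides: slide 1 held prednisolone cow 6 and controls 1, 2 and 5, slide 2 prednisolone cows 3, 5 and 8 and control 3, slide 3 prednisolone cow 1 and controls 4, 6 and 7, and slide 4 prednisolone cows 2, 4 and 7 alone. Slide 4 stood apart from the rest, and 4910 of 16052 probes (30.6%) differed between slides (limma F test, Benjamini-Hochberg adjusted p under 0.05, with treatment in the fit). Of the 11 probes of the 10 genes 1 did, the second probe of RET (adjusted p = 0.0415), while the adjusted p of the other 10 probes lay between 0.136 and 0.829. With 2 levels inside most slides the error of this test is large, so it does not show that these genes are alike between slides.

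All values are log2 signals relative to the 75th percentile of the array's bovine spots, so 0 is the level of that percentile. The step of a probe is the widest gap between neighbouring arrays once all 15 are put in order, with at least 2 arrays on each side of it, and arrays are called above or below that step. Over 16002 probes with a value on all arrays the median step was 0.17, and 607 probes (3.79%) had a step of at least 1. The main probes of the 10 genes, each the kept probe of its gene with the widest step, had steps of 2.22 to 4.28 with a median of 3.44. Most of the 607 steps were of another kind: 434 set the 3 arrays of slide 4 exactly against the other 12, in 425 of these with slide 4 below. With at least 4 arrays required on each side only 55 probes (0.344%) had a step of 1 or more, and the 10 genes took ranks 1, 2, 3, 6, 7, 8, 10, 11, 12 and 14. Since the genes were picked for this spread, these ranks describe the choice.

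**Figure D1:**
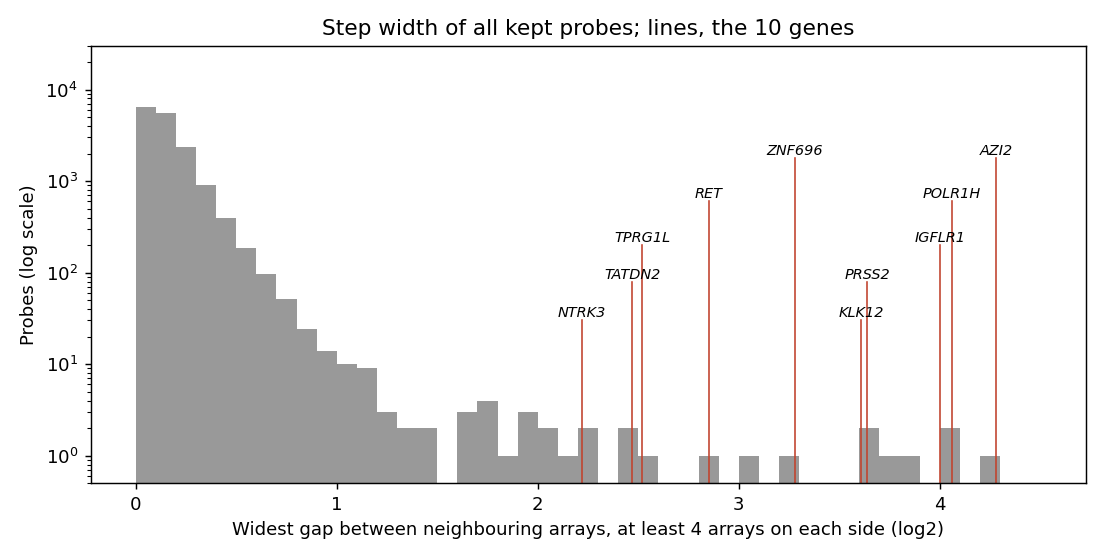
Number of kept probes (log scale) by the width of their step in log2 units, with at least 4 arrays on each side; red lines mark the main probes of the 10 genes. Nearly all probes sit below 1, and the 10 genes between 2.22 and 4.28.

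PRSS2, a trypsinogen that the pancreas secretes in quantity (named TRYP8 on the array), was high in 6 cows and low in 9. The high prednisolone cows were 5, 4 and 2, at 1.03, 0.81 and 0.39, and the high controls were 4, 5 and 6, at 1.19, 0.86 and 0.77. The low arrays lay between -4.43 and -3.25 in 5 prednisolone cows and between -3.96 and -3.42 in 4 controls. No array fell in the 3.64 log2 units in between, a 12.5-fold gap in signal. The probe was well above background on all 15 arrays, so the low level too was measured: 60.7 to 120.0 units of processed signal in the low cows, against 1370 to 3658 in the high ones. In a bulk sample fewer cells of a type and less RNA per cell cannot be told apart. Nor can the amount of a transcript be told apart here from how well an animal's own sequence binds the probe, since probe sequences were not used, and this holds for each high and low level given.

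KLK12, a kallikrein-related peptidase known from epithelia in humans, was high in the same 6 cows. Prednisolone cows 5, 4 and 2 gave 0.19, 0.10 and -0.26, and controls 5, 4 and 6 gave 0.11, -0.18 and -0.50. All other arrays lay between -4.86 and -4.35 with prednisolone and between -4.84 and -4.11 in controls. The step of 3.61, a 12.2-fold gap, was close to that of PRSS2, and again all 15 arrays were well above background. PRSS2 and KLK12 thus stood on the same side in 15 of 15 cows, the only pair of the 10 genes to do so. They were taken as a linked pair when the genes were chosen, so this agreement describes the choice. PRSS2 minus KLK12 was 0.65 to 1.37 in the high cows and 0.24 to 1.42 in the low cows, with a median of 0.84 over all arrays, so that it varied by less than either step. The reference table puts them on different chromosomes.

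**Figure D2:**
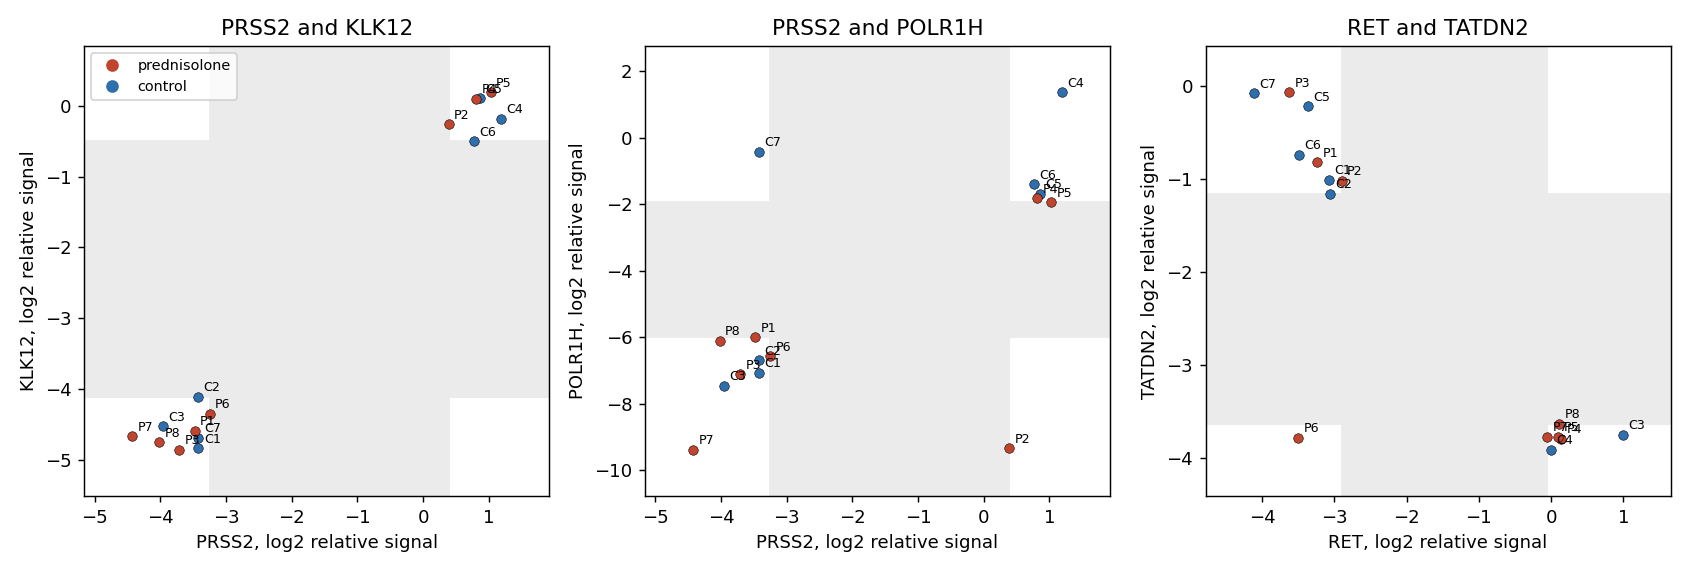
Log2 relative signal of PRSS2 against KLK12, PRSS2 against POLR1H and RET against TATDN2, 1 point per cow (P, prednisolone, red; C, control, blue), with the steps shaded. The 15 cows fall into opposite corners for PRSS2 and KLK12, cows P2 and C7 leave that pattern for POLR1H, and RET and TATDN2 are on opposite sides in all cows but P6, which is low for both.

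No other pancreatic transcript that passed the filter split the cows just as PRSS2 did. Of 15 acinar cell markers on the array (PRSS2 not counted) 8 passed the filter, while CTRC, CELA3B, PNLIP, PNLIPRP1, PLA2G1B, SPINK1 and RBPJL did not. The summed linear level of the 8 was 0.96 to 1.34 times the 75th percentile in prednisolone cows and 0.93 to 1.18 times in controls. The brightest, AMY2B (-1.19 to -0.60 on the log2 scale), weighed most in that sum. Dim markers such as CELA2A (-7.21 to -3.58) hardly counted in it, so it does not show how they varied. Only CELA2A, an elastase, had a step of at least 1 (1.49), and its best match with PRSS2, on the same or the opposite side, was 11 of 15 cows. By the same count CELA1 matched in 12 cows and CLPS, CEL and CPB1 in 11, with steps of 0.14 to 0.47. GP2, CPA1 and AMY2B matched in 9. None of the 14 trypsins, kallikreins and their partners that passed the filter had a step of at least 1, beside 3.79% of all probes. KLK10, KLK9 and KLK8, neighbours of KLK12 in the reference table, had steps of 0.22, 0.07 and 0.18.

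IGFLR1, a receptor of the tumour necrosis factor receptor type that binds IGF-like proteins and is known from mouse T cells, was high in 7 cows. Among prednisolone cows 3, 1, 5, 2 and 8 were high (2.66, 2.57, 2.40, 2.25 and 2.20) and cows 7, 4 and 6 low (-1.80, -1.96 and -2.04). Among controls only cows 5 and 1 were high (3.35 and 2.60), and the other 5 lay between -2.42 and -1.90. The step was 4.0, a 16.0-fold gap, with all 15 arrays well above background. Control 5 lay 0.69 above the next array, whereas the other 6 high arrays spanned 2.20 to 2.66.

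RET, the receptor tyrosine kinase for ligands of the GDNF family, was high in prednisolone cows 4, 8, 5 and 7 (0.14, 0.11, 0.10 and -0.05) and low in the other 4 (-3.63 to -2.90). It was high in controls 3 and 4 (0.99 and 0.00) and low in the other 5 (-4.12 to -3.06). Prednisolone cows lay within the range of the controls, and the step of 2.85 was a 7.2-fold gap. Control 3 stood 0.85 above the next array. A second RET probe, well above background on 8 arrays, placed 15 of 15 cows on the same side with a step of 1.93. There too control 3 was highest, at -2.86 against -3.60 for the next array. Agreement between probes of a gene was in view when the genes were chosen, so for RET and NTRK3 it describes the choice. The third probe named for RET was well above background on 0 arrays and says nothing of either level.

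NTRK3, the receptor tyrosine kinase for neurotrophin-3, was high in prednisolone cows 5, 8 and 2 (-1.20, -1.60 and -1.79) and in controls 6, 5 and 2 (-1.23, -1.44 and -2.24). The low arrays were -6.45 to -4.46 with prednisolone and -5.47 to -4.81 in controls, so the groups overlapped, with prednisolone cows 4, 6 and 7 below every control. Its step of 2.22, a 4.7-fold gap, was the narrowest of the 10. The second NTRK3 probe, too dim to pass the filter with 6 arrays well above background, was above its own step of 1.59 in exactly those 6 cows. Within the high cows the 2 probes gave different orders: control 6, close to the highest on the first probe, was at -5.21 on the second, with only prednisolone cow 2 lower at -5.57.

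**Figure D3:**
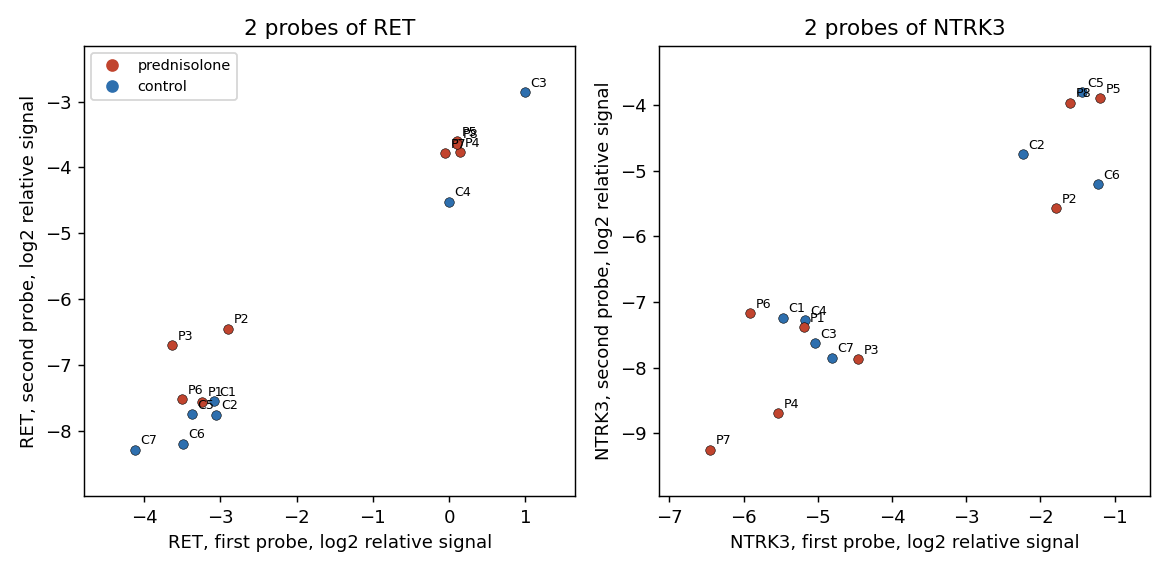
Log2 relative signal of the first against the second probe of RET and of NTRK3, 1 point per cow (P, prednisolone, red; C, control, blue). For both genes the same 6 cows are high on both probes and the same 9 are low. Agreement between probes was in view when the genes were chosen.

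The measured partners of these receptors had no step of at least 1, beside 3.79% of all probes, so an absence in lists this short says little. Of 14 genes of the RET system on the array (ligands, co-receptors and adaptors) 9 passed the filter and 0 had a step of at least 1. The ligands GDNF and ARTN and the co-receptor GFRA1 did not pass the filter. Of 11 genes of the neurotrophin system 7 passed and 0 had such a step, and the ligands BDNF and NTF3 were among the genes that did not pass the filter. Markers of nerve and Schwann cells, in which both receptors are known, passed in 9 of 16 cases, 0 with a step. Their summed linear level was 11.26 to 15.83 in prednisolone cows and 11.20 to 15.51 in controls. That sum was mostly TH (3.27 to 3.85 on the log2 scale). It therefore does not show how the dimmer markers varied, such as UCHL1 (-3.87 to -1.80) or NEFM (-3.78 to -1.40).

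AZI2, an adaptor that binds the kinase TBK1 in interferon induction, was high in 10 cows. Prednisolone cows 4 and 5 gave -0.89 and -0.91, cows 7, 1, 3 and 8 gave -1.77, -1.78, -1.88 and -1.92, and cows 2 and 6 were low at -6.43 and -6.68. Controls 7, 6, 2 and 4 gave -1.66, -1.76, -1.90 and -1.92, and cows 5, 3 and 1 were low at -6.20, -6.59 and -6.74. The step was 4.28, and only 1 of the 5 low arrays was well above background, so the low level is mostly that of the background. Under normexp the step was 1.44, but steps also narrowed for genes well above background on all 15 arrays. The cause of the narrowing was not tested. Within the high cows prednisolone cows 4 and 5 lay 0.75 above the other 8, which spanned -1.92 to -1.66. Of 14 genes of TBK1 signalling, all of which passed the filter, STING1, a sensor adaptor, had a step of at least 1 (1.43). Its best match with AZI2, on the same or the opposite side, was 9 of 15 cows. Its match with each of the 10 genes was that of a step between slide 4 and the other arrays, the kind most common on the array.

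ZNF696, a zinc finger protein, was high in 6 of 8 prednisolone cows, 1, 2, 8, 3, 5 and 7 (-2.64, -2.77, -2.84, -2.85, -2.90 and -3.24), and low in cows 6 and 4 (-7.46 and -8.67). It was high in control 6 alone (-3.13), the other 6 controls lying between -8.14 and -6.52. All 7 high arrays were well above background and spanned 0.61 units, and 1 of the 8 low arrays was well above background. The step was 3.28, and 0.92 under normexp.

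POLR1H, a small subunit of RNA polymerase I, was above its step of 4.06 in prednisolone cows 4 and 5 (-1.82 and -1.93) and in controls 4, 7, 6 and 5 (1.37, -0.41, -1.40 and -1.68). The other 6 prednisolone cows lay between -9.38 and -5.99 and controls 1, 2 and 3 between -7.45 and -6.69, and 1 of these 9 arrays was well above background. The high cows were less alike than for any other gene, spanning 3.30 units, with control 4 at 1.77 above the next array. POLR1H was on the side of PRSS2 and KLK12 in 13 of 15 cows, prednisolone cow 2 being high for PRSS2 only and control 7 for POLR1H only. The other subunits and factors of RNA polymerase I, 14 genes that all passed the filter, had 0 steps of at least 1, beside 3.79% of all probes.

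TATDN2 was high in prednisolone cows 3, 1 and 2 (-0.07, -0.82 and -1.02) and low in the other 5 (-3.79 to -3.63). Of the controls, cows 7, 5, 6, 1 and 2 were high (-0.08, -0.22, -0.74, -1.01 and -1.16), and cows 3 and 4 low (-3.75 and -3.91). All arrays were well above background, and the 7 low ones spanned only 0.29 units. The high arrays fell into 3 between -0.22 and -0.07 and 5 between -1.16 and -0.74, with 0.52 in between. TATDN2 and RET were on opposite sides in 14 of 15 cows, the exception being prednisolone cow 6, low for both.

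TPRG1L was high in prednisolone cows 3, 5, 1 and 2 (1.09, 0.29, 0.24 and 0.01) and low in the other 4 (-2.97 to -2.56). It was high in controls 4, 2, 7, 6 and 1 (0.31, 0.24, 0.24, 0.12 and -0.04) and low in controls 3 and 5 (-3.09 and -3.11). The step of 2.52 was a 5.7-fold gap between arrays that were all well above background. Prednisolone cow 3 stood 0.79 above the next array, while the other 8 high cows spanned -0.04 to 0.31. It shared its side with TATDN2 in 12 of 15 cows. The relatives of TATDN2 and TPRG1L that passed the filter, TATDN1 and TATDN3, had steps of 0.13 and 0.08.

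**Figure D4:**
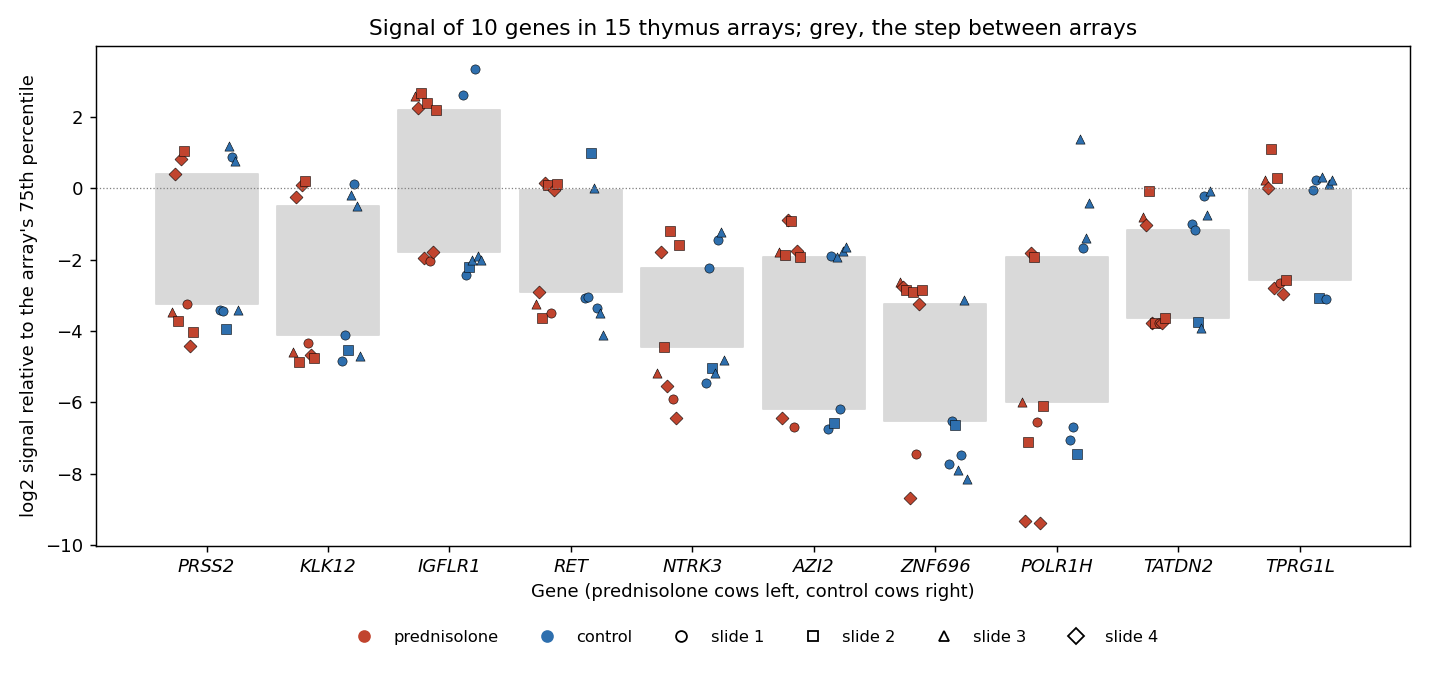
Log2 signal relative to the array's 75th percentile for the main probe of each of the 10 genes, 1 point per cow (prednisolone, red, left; control, blue, right), with marker shape for the slide and the step in grey. For every gene both treatment groups have cows above and below the step.

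The repeat spots of a probe show the error within an array, not that between animals. Each probe is printed 2 times on the array, and the median difference between its spots was 0.06 to 0.41 for the 10 main probes. All used spots of the main probes, 29 or 30 each, stood on the side of their probe's mean. The largest spot differences, 1.03 to 2.09, belonged to KLK12, AZI2, ZNF696 and POLR1H, taken over high and low arrays alike. For AZI2 the largest was 1.49. The median spot difference in its high cows was 0.12, beside the gap of 0.75 among them.

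Among 45 pairs of genes, 36 agreed in 6 to 10 of 15 cows. Agreement between genes was in view when they were chosen, and that of PRSS2 with KLK12 was part of the choice. The counts for all pairs are therefore a description. PRSS2 and KLK12 agreed in 15, PRSS2 and KLK12 each with POLR1H in 13, TPRG1L and TATDN2 in 12, NTRK3 with PRSS2 and with KLK12 in 11, IGFLR1 and ZNF696 in 11, and RET with TATDN2 in 1 and with TPRG1L in 4. The number of the 10 genes on the high side per animal was lowest in prednisolone cow 6, with 0, and highest in prednisolone cow 5, with 9. The other prednisolone cows had 3 to 7, and the controls 1 to 8. As to slides, 6 genes had arrays on both sides on all 4 slides and the other 4 genes (AZI2, ZNF696, RET and TPRG1L) on 3. RET and ZNF696 had 0 arrays above on slide 1, and AZI2 and TPRG1L had all 4 arrays above on slide 3.

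**Figure D5:**
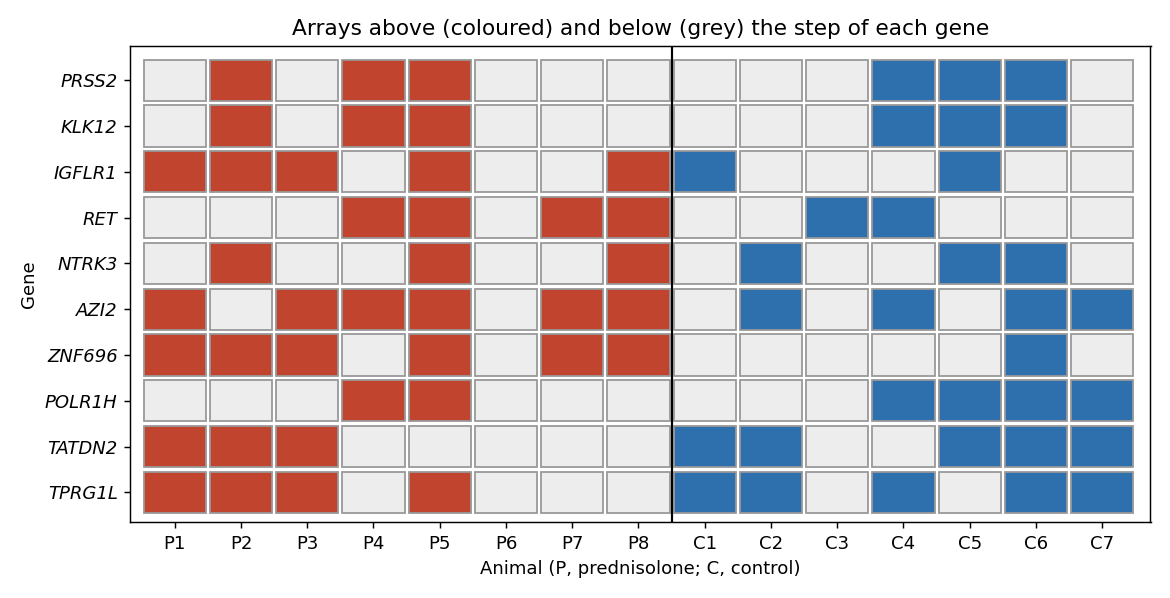
Cows above (red, prednisolone; blue, control) and below (grey) the step of each gene, prednisolone cows P1 to P8 on the left and controls C1 to C7 on the right. The rows of PRSS2 and KLK12 are the same, RET and TATDN2 are nearly mirror images, and P6 is below every step.

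The treatment comparison asks whether the level of these genes depended on prednisolone. The spread between animals does not use that label, but the genes were proposed with earlier treatment results known. Independence of treatment was itself in view when they were chosen, so a lack of difference in them describes the choice. Of 16068 probes tested 0 passed (0.0%; limma, adjusted p under 0.05), and 0 of the 11 probes of the 10 genes did. At an unadjusted p under 0.05 there were 1138 probes (7.08%), ZNF696 being the only one of the 11. Of the main probes 4 were higher and 6 lower with prednisolone, with a median difference of -0.30, beside 8016 higher and 8052 lower with a median of -0.00044 over all probes. For each gene both groups had cows above and below the step, so the groups overlapped. That follows from the 2 levels and is no result about treatment. With 2 levels several log2 units apart inside each group the standard errors are large, and these intervals do not show that the treatment leaves the genes alike. The 95% intervals ran from -6.01 to 0.61 for POLR1H, from -0.98 to 3.86 for IGFLR1, from -2.65 to 2.21 for KLK12, from -1.44 to 3.53 for AZI2, from -2.68 to 0.62 for TATDN2, from -1.25 to 2.61 for RET, from -2.46 to 1.68 for NTRK3 and from -2.10 to 1.29 for TPRG1L.

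ZNF696 averaged -4.17 ± 2.43 in prednisolone cows (SD, n = 8) and -6.79 ± 1.73 in controls (SD, n = 7). The difference of 2.62 ± 1.02 (SE) had a 95% interval of 0.45 to 4.80 and did not pass over all probes (limma, adjusted p = 0.655). It fell to 0.26 under another background correction (normexp) and to 0.97 under normexp without 12 spots of high local background. With slide as a block it was 2.44 (limma, adjusted p = 0.582), and within slides 1, 2 and 3 it was -0.22, 3.79 and 3.76. POLR1H averaged -6.03 ± 2.88 in prednisolone cows and -3.33 ± 3.63 in controls, a difference of -2.70 ± 1.55 (limma, adjusted p = 0.743), which was -1.62 with the block and -1.42, 2.40 and -5.84 within the slides. IGFLR1 averaged 0.78 ± 2.26 in prednisolone cows and -0.66 ± 2.50 in controls, a difference of 1.44 ± 1.13 (limma, adjusted p = 0.831), 1.99 with the block and -3.22, 4.64 and 4.54 within the slides. For these genes slide 1 gave a difference below 0, and slides 2 and 3 did not agree in sign for POLR1H.

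PRSS2 averaged -2.08 ± 2.37 in prednisolone cows and -1.63 ± 2.41 in controls, a difference of -0.45 ± 1.15 with an interval of -2.89 to 1.98 (limma, adjusted p = 0.960), -0.84 with the slide block, and within slides 1 to 3 it was -1.26, 1.73 and -2.99. KLK12 averaged -2.90 ± 2.42 in prednisolone cows and -2.68 ± 2.34 in controls, a difference of -0.22 ± 1.14 (limma, adjusted p = 0.981), -0.94 with the block, and -1.41, 1.39 and -2.80 within the slides. For both proteases 3 prednisolone cows and 3 controls were high.

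AZI2 differed by 1.04 ± 1.17 (6 prednisolone cows and 4 controls high) and TATDN2 by -1.03 ± 0.776 (3 and 5 high), with limma adjusted p of 0.892 and 0.817. With slide as a block they differed by 1.1 and -0.32. RET differed by 0.68 ± 0.906 on the first probe and 1.33 ± 0.947 on the second (4 prednisolone cows and 2 controls high), with limma adjusted p of 0.914 and 0.808. With slide as a block the RET differences turned to -1.06 and -0.72. NTRK3 differed by -0.39 ± 0.973 (3 and 3 high) and TPRG1L by -0.40 ± 0.797 (4 and 5 high), with limma adjusted p of 0.960 and 0.947, and TPRG1L turned to 0.34 with the block. Within slides 1, 2 and 3 the differences were -1.73, 5.02 and 0.00 for AZI2, -2.99, 1.26 and 0.75 for TATDN2, -0.34, -2.13 and -0.71 for the first RET probe, -2.86, 2.62 and -1.44 for NTRK3, and -1.69, 2.70 and 0.02 for TPRG1L. Each of slides 1, 2 and 3 has a single animal on one side. The sign changed between slides for each of these probes but the first RET probe, while the second RET probe gave 0.17, -1.78 and -0.56.

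In the gene lists around the 10 genes 0 genes passed the treatment test. The trypsin and kallikrein list had 4 genes higher and 10 lower with prednisolone (median -0.13), with the smallest p for KLK6 (-0.49 ± 0.229, limma adjusted p = 0.700). The RET list had 6 higher and 3 lower (median 0.08; SHC1 0.14 ± 0.0766, limma adjusted p = 0.732) and the neurotrophin list 1 higher and 6 lower (median -0.08; the sorting receptor SORT1 -0.40 ± 0.249, limma adjusted p = 0.771). The TBK1 list had 6 higher and 8 lower (median 0.00; TBK1 -0.25 ± 0.133, limma adjusted p = 0.732). The RNA polymerase I list had 9 higher and 5 lower (median 0.06), led by POLR1C, a subunit shared with RNA polymerase III (0.22 ± 0.0677, limma adjusted p = 0.567). TATDN3 differed by 0.06 ± 0.0725 (limma adjusted p = 0.897).

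Markers of cell types that a thymus sample could hold were set beside the 10 genes. Steps of at least 1 among them are to be read beside the 3.79% of all probes that had one. Thymocyte markers had 8 genes higher and 3 lower (median 0.09; CD8A 0.23 ± 0.071, limma adjusted p = 0.568), thymic epithelium 6 and 5 (median 0.00; PRSS16 -0.14 ± 0.076, limma adjusted p = 0.724), and neither list had a gene with a step of at least 1. Pancreatic acinar markers had 2 higher and 6 lower (median -0.09; GP2 -0.28 ± 0.186, limma adjusted p = 0.789), nerve and Schwann markers 4 and 5 (median -0.03; MBP -0.16 ± 0.084, limma adjusted p = 0.718) and stratified epithelium 9 and 2 (median 0.08; KRT13 0.31 ± 0.146, limma adjusted p = 0.701). Of the thyroid and parathyroid list 4 of 9 genes passed the filter (1 higher, 3 lower, median -0.11), CALCA and PTH not among them, and SLC26A4 had a step of 1.15 (1.30 ± 0.509, limma adjusted p = 0.655). The 6 adipocyte and 6 skeletal muscle markers were all higher (medians 0.28 and 0.18; PNPLA2 0.32 ± 0.117 and ACTA1 0.56 ± 0.585, limma adjusted p = 0.655 and 0.878), and MYL1 had a step of 1.07. The liver marker TTR had a step of 2.85 (0.84 ± 0.670, limma adjusted p = 0.832), and the 2 liver markers that passed summed to 0.65 to 4.01 with prednisolone and 0.79 to 2.38 in controls. The testis marker PRM1 had a step of 2.46 (-2.48 ± 1.43, limma adjusted p = 0.743), and the 2 testis markers that passed summed to 0.30 to 3.30 with prednisolone and 0.23 to 21.15 in controls. Neither TTR nor PRM1 matched any of the 10 genes, on the same or the opposite side, in more than 9 of 15 cows, and the part of other tissues in the levels was not tested further.

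The nearest measured genes in the reference table were followed to see whether neighbours shared the levels. Among 60 measured neighbours, up to 3 on each side of each gene and 1 to 78 genes away in the table (median 5, with 7 more than 20 away, among them all 3 on one side of PRSS2), the median step was 0.16 and 2 (3.33%) had a step of at least 1, against 3.79% of all probes. These were TRPV5 near PRSS2 (1.63, on the same or the opposite side in 10 of 15 cows) and RBMS3 near AZI2 (1.25, likewise in 9), both named after their values were seen. EOMES, a T-box transcription factor near AZI2, was on the same or opposite side in 13 of 15 cows, but its step was 0.25. No neighbour joined a step of at least 1 with agreement in 13 cows.

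Elsewhere on the array few genes sorted the cows as the 10 genes did. With a step of at least 1 required, the nearest named gene outside the 10 matched, on the same or the opposite side, in 11 or 12 of 15 cows. INTS9, a subunit of the Integrator complex, was opposite to RET in 12, and BOLA-NC1, a cattle major histocompatibility complex (MHC) class I gene with a step of 3.84, was opposite to TATDN2 in 12. OLFM1 matched IGFLR1 in 12 cows and was opposite to AZI2 in 12, with a step of 1.04. DYNLT3 and RPL4 matched AZI2 in 12, and DKK3 was opposite to TPRG1L in 12 while LRRC17 matched it in 12. The interferon-induced GTPase GBP5 was opposite to PRSS2, KLK12 and POLR1H in 11. The remaining nearest genes matched, on the same or the opposite side, in 10 or 11: ENTPD3 and ZIM2 with PRSS2 and KLK12, ZFP64 with IGFLR1 and RET, MYOT with IGFLR1, NETO2 and ASGR2 with ZNF696, DMBT1 and SLC50A1 with POLR1H, and SEPTIN6, ERAP1 and IL1R2 with NTRK3. A probe without a symbol, described as similar to the human MHC class I gene HLA-B, came closer: it had a step of 3.75 and matched PRSS2, KLK12 and POLR1H in 13 of 15 cows each. It was chosen after its values were seen. Several steps of the named genes set few cows apart. For DYNLT3, RPL4, ENTPD3, ZIM2, ASGR2, SEPTIN6 and ERAP1, 13 cows were above the step. Only 2 cows were above it for DMBT1 and IL1R2, 3 for DKK3 and 4 for OLFM1 and SLC50A1. Such uneven sides can match in many cows by their size alone.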

How the data were processed

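Per the file headers, the deposited spot intensity comes from Feature Extraction 9.5.1.1: the processed signal is background-subtracted and detrended, and not scaled between arrays. Flags of single spots (other values: well above background, outlier) came from that software too (per the file headers). A table of linear intensity values was deposited by the authors as well, with 44396 rows and column medians of 184.8 to 271.2 over the bovine spots. It ranked spots as the processed signal did (Spearman at least 0.99962 per array). Any centring of its columns is unknown. R 2.11.1 is named in the submitters' processing notes.

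From each array's log2 signals the 75th percentile of its 42990 bovine spots was subtracted, outlier spots were left out and the spots of a probe averaged (21475 probes, 16350 with a symbol). The reference table's older symbols, accessions and gene numbers gave the names: TRYP8 for PRSS2, and loci for KLK12, IGFLR1, ZNF696, POLR1H, TPRG1L, TATDN2 and the main RET probe. The main probes of AZI2 and NTRK3 are named by the human gene their description calls similar. Of 16069 kept probes 16068 were tested for treatment with limma 3.58.1 in R 4.3.3, with Benjamini-Hochberg adjustment over all of them. The numbers of the cows follow the order of the samples and pair nothing. Steps and sides are descriptions, not groups for a test.

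The 10 genes, the marker and pathway lists and the rule for naming genes were chosen with earlier results of these data known. Per gene the rule names up to 3 others with a step of at least 1 and the most cows alike, and neighbours alike in at least 13 cows. From a list it names genes that passed, or the 1 with the smallest p, a list gene being its brightest kept probe. Alternatives were quantile and median normalization, normexp (offset 50), the table of the authors, stricter and looser filters, keeping outlier spots, a slide block (fixed or random), no slide 4, eBayes with trend and robust, and each cow left out. Normexp without 12 spots of local background above 200 was added after the data were seen. The fits and the search for steps were tested on simulated data.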

Additional observations from a re-analysis of the deposited data

Results flagged for a closer look

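ZNF696 in control 6 was at -3.13 on the log2 scale relative to the array's 75th percentile, far from the other 6 controls, of which the next was at -6.52 and the lowest at -8.14. Among the prednisolone cows 6 of 8 lay near that value. ZNF696 was chosen for its 2 levels, so a gap of this kind is part of the choice. The cause was not tested.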

How the results depend on the processing

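No paired analysis was possible because the numbers of the cows follow the order of the samples and pair nothing. The steps of the 10 genes stayed at least 1, with 15 of 15 cows on the same sides, under quantile normalization, median centring and with outlier spots kept, and in the 8 genes with a value on every array in the authors' table (not ZNF696 and POLR1H). Under normexp, with or without the 12 spots of high local background, 9 of 10 steps stayed at least 1, ZNF696 being at 0.92. On all spots they narrowed to between 0.92 and 3.5, and 2 cows changed sides for KLK12, AZI2, ZNF696, POLR1H and NTRK3 and 1 for RET and TATDN2; PRSS2 and KLK12 agreed in 13 cows and their steps were 1.19 and 1.16, and without those spots no cow changed sides, they agreed in 15 and the steps were 3.00 and 2.33. IGFLR1, not AZI2, had the widest step under quantile normalization and both normexp settings (3.98, 3.5 and 3.83). The count of probes with a step of at least 1, 607, was 404 under quantile normalization, 3344 under normexp and 71 without those spots, 325 with the authors' values, 1279 with at least 1 and 139 with all 15 arrays well above background, and 55 with 4 arrays on each side.

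The count of probes changed by prednisolone was 0, 1 under quantile normalization, and 0 to 3 with 1 cow left out, 3 without prednisolone cow 1; none was of the 10 genes. Probes that differed between slides numbered 144 under normexp, 7855 without the 12 spots and 8538 with no filter. Treatment differences that passed no test changed sign under normexp for AZI2 (-0.18) and the second RET probe (-0.36), with slide as a fixed block for both RET probes (-1.06 and -0.72) and TPRG1L (0.34), with a random block for RET (-0.31) and TPRG1L (0.01), and without slide 4 for TPRG1L (0.04). Without slide 4 PRSS2 was at -1.06 and KLK12 at -0.99. With 1 cow left out PRSS2 ranged from -0.90 to 0.02, KLK12 from -0.66 to 0.24, NTRK3 from -0.79 to 0.01, AZI2 from 0.56 to 1.60, the first RET probe from 0.38 to 1.23 and TPRG1L from -0.80 to -0.15. The cause of these shifts was not tested. For AZI2, ZNF696, POLR1H and the second probes of RET and NTRK3 the low level lies mostly below the limit of detection, so its order carries no information.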

Other observations

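With at least 4 arrays on each side, 18 probes had a step of 2 or more, 10 of them the main probes described above. The other 8 were looked at after their values were seen. They include 3 probes described as MHC class I, the family that presents peptides to CD8 T cells: BOLA-NC1 (step 3.84, 5 prednisolone cows and 3 controls high), the probe similar to HLA-B (3.75, 4 and 4) and one described as a class I-like gene, MHCLA1 (3.04, 4 and 5). The MHC class I-like probe matched each of the 10 genes in at most 11 of 15 cows. Another 3 probes belong to genes known from the testis, PRM1, DNAJB8 and HMGB4, with steps of 2.46, 2.16 and 2.09, and all were high in prednisolone cow 8 and controls 1, 4 and 6. Their sides matched each of the 10 genes in at most 9 cows. The last 2 are unidentified transcripts with steps of 2.20 and 2.08. None of these passed the treatment test (limma, adjusted p from 0.655 to 0.950).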
